A study of Capra hircus with 13 samples.

Results

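Autophagy and lysosome genes were followed through early goat development. A gene was taken as a member by its symbol, and 71 of the 27161 gene names in the 5 deposited tables qualified. They comprise 4 genes of the initiation complex, 2 of the phosphoinositide kinase complex, 6 of membrane supply, 11 of the conjugation machinery, 6 ATG8 proteins, 3 cargo receptors, 9 V0 and 13 V1 genes of the proton pump, 13 cathepsins, 3 lysosomal membrane proteins and the transcription factor *TFEB*. The RNA-seq libraries were made by Smart-seq2, a method that amplifies full-length cDNA from very little RNA. Levels are FPKM, that is fragments per length of transcript, scaled to the mapped fragments of the library, so they can be compared between genes of different length.

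The untreated groups were MII oocytes (mature oocytes, 3 libraries), 4-cell stage embryos (3 libraries) and 8-cell stage embryos (3 libraries). The injected groups were 8-cell stage embryos given negative control siRNA (NC, 2 libraries, titled WT by the submitters) and 8-cell stage embryos given *YTHDF2* siRNA (YTHDF2-KD, 2 libraries), all of them produced by in vitro fertilization (IVF). The *YTHDF2* siRNA was used at 20 µM, and both injections were done 8 h after IVF. YTHDF2 is a reader of RNA N6-methyladenosine that directs bound mRNA to decay. Each injected library was a pool of embryos, so the spread between embryos was not measured. The untreated libraries came from 2 earlier studies of the same group, and which library came from which is not stated, so the study and the stage cannot be told apart.

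Autophagy encloses cytoplasm in a double membrane, the autophagosome, and delivers it to the lysosome. The ULK1 kinase complex and the lipid kinase complex of BECN1 and ATG14 start the process, ATG5, ATG12 and their partners attach ATG8 proteins to the membrane, and receptors such as SQSTM1 tie cargo to these proteins. The lysosome is acidified by the V-ATPase, a pump with a membrane part (V0) and a cytosolic part that splits ATP (V1), and cathepsins are its proteases. In mammals, autophagy is known to be needed for development soon after fertilization, when maternal proteins and mRNAs are removed and the embryonic genome becomes active.

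The knockdown was made with a mixture of *YTHDF2* siRNAs. Their antisense strands are shown because they define the treatment, 5′ to 3′, with the seed (bases 2 to 8) in capitals.
s28148: uUGCUAGCaauaucagcccaa
s28147: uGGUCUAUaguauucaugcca
The seeds of these strands differ. *YTHDF2* was at 112 and 159 FPKM in the NC libraries and at 8.07 and 4.47 FPKM in the YTHDF2-KD libraries. The log2 difference was -4.25 (SE 0.43, adjusted p = 0.00037).

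Fragments could be recovered from the FPKM steps of the untreated libraries, and 22511782 to 29133809 fragments fell on the listed names of a library. The depth of the injected libraries is unknown, since their values are rounded. Per unit of the authors' divisor, the MII libraries held 66.6% to 68.2% as many fragments on listed names as 4-cell replicate 1, against 98.9% to 101% in the other embryo libraries. The median of all genes was 0.29 above MII in 4-cell embryos and 0.37 above MII in 8-cell embryos on the log2 scale, and changes from MII are to be read against these shifts. Whether the divisor of the MII table was made in the same way is not stated, and a different one would shift all differences from MII alike. With libraries set to an equal sum of FPKM the same medians were -0.14 and 0.020. 8-cell replicate 1 stood apart, with a mean correlation of 0.876 with its own group, where the other untreated libraries had 0.91 to 0.971. It was the highest of the 9 untreated libraries for 20 of 43 fitted members, and for 30.3% of all fitted genes. Of 8 oocyte genes listed, 8 reached 1 FPKM in at least 1 library of each group but NC, where 6 did. *ZP2*, *GDF9* and *BMP15* were at 59.8 FPKM or more in every library. Others were lower in places, with *ZP3* at 8.85 to 211 FPKM, *FIGLA* at 0.43 to 16.8 FPKM and *NLRP5* at 0.200 to 8.70 FPKM over the 13 libraries. The summed level of 4 genes that mark genome activation (*ARGFX*, *DUXA*, *LEUTX* and *KLF17*) was 10.4 to 14.2 FPKM in MII oocytes, 334 to 1380.0 FPKM in untreated 8-cell embryos and 3123 to 3905 FPKM in injected embryos. The summed level of 9 cumulus and granulosa cell genes was 41.1 to 59.9 FPKM in MII oocytes, 51.4 to 65.2 FPKM at the 4-cell stage and 84.3 to 127 FPKM at the 8-cell stage. In each stage group 4 of the 9 reached 1 FPKM in at least 1 library, but not the same 4. *HAS2*, *TNFAIP6* and *STAR* did so in all groups, *PTX3* in MII oocytes only and *CYP19A1* in 4-cell and 8-cell embryos only. *AMH* was listed at 0. *STAR* was at 29.1 to 34.0 FPKM in MII oocytes and 38.8 to 95.6 FPKM in untreated 8-cell embryos, *HAS2* at 8.15 to 9.99 FPKM and 20.6 to 29.4 FPKM, and *TNFAIP6* at 0.782 to 19.3 FPKM and 4.47 to 19.9 FPKM. *CYP19A1* was at 0.292 to 0.531 FPKM and 1.66 to 2.08 FPKM, and *PTX3* at 0 to 2.35 FPKM and 0.0788 to 0.304 FPKM. *FSHR*, *FST* and *INHBA* were under 0.37 FPKM in both groups. The highest *STAR* value and the highest sum were those of 8-cell replicate 1, and *STAR* was at 42.4 and 38.8 FPKM in the other 8-cell libraries. The part of such cells in the results was not tested.

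Of the 71 members, 43 reached the mean of 1 FPKM needed for the stage fit, 55 reached it for the knockdown fit, 42 reached both and 15 reached neither. In every untreated library 18 members were under 1 FPKM, and in every injected library 11 were. *TFEB*, the transcription factor that drives lysosomal genes, was among those in neither fit, with 0, 0 and 0 FPKM in MII oocytes, 0, 0.0165 and 0 FPKM in 4-cell and 0.0653, 0 and 0 FPKM in 8-cell embryos, 0 and 0.1 FPKM in NC and 0.55 and 0 FPKM in YTHDF2-KD. The others in neither fit were *ATG10*, *ATG16L2*, *ATG9A*, *WIPI1*, *MAP1LC3C*, *ATP6V0D2*, *ATP6V0E2*, *ATP6V1E2*, *ATP6V1G2*, *ATP6V1G3*, *CTSF*, *CTSH*, *CTSW* and *LAMP3*, and *ATG16L2* was listed at 0 in all 4 injected libraries.

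**Figure D1:**
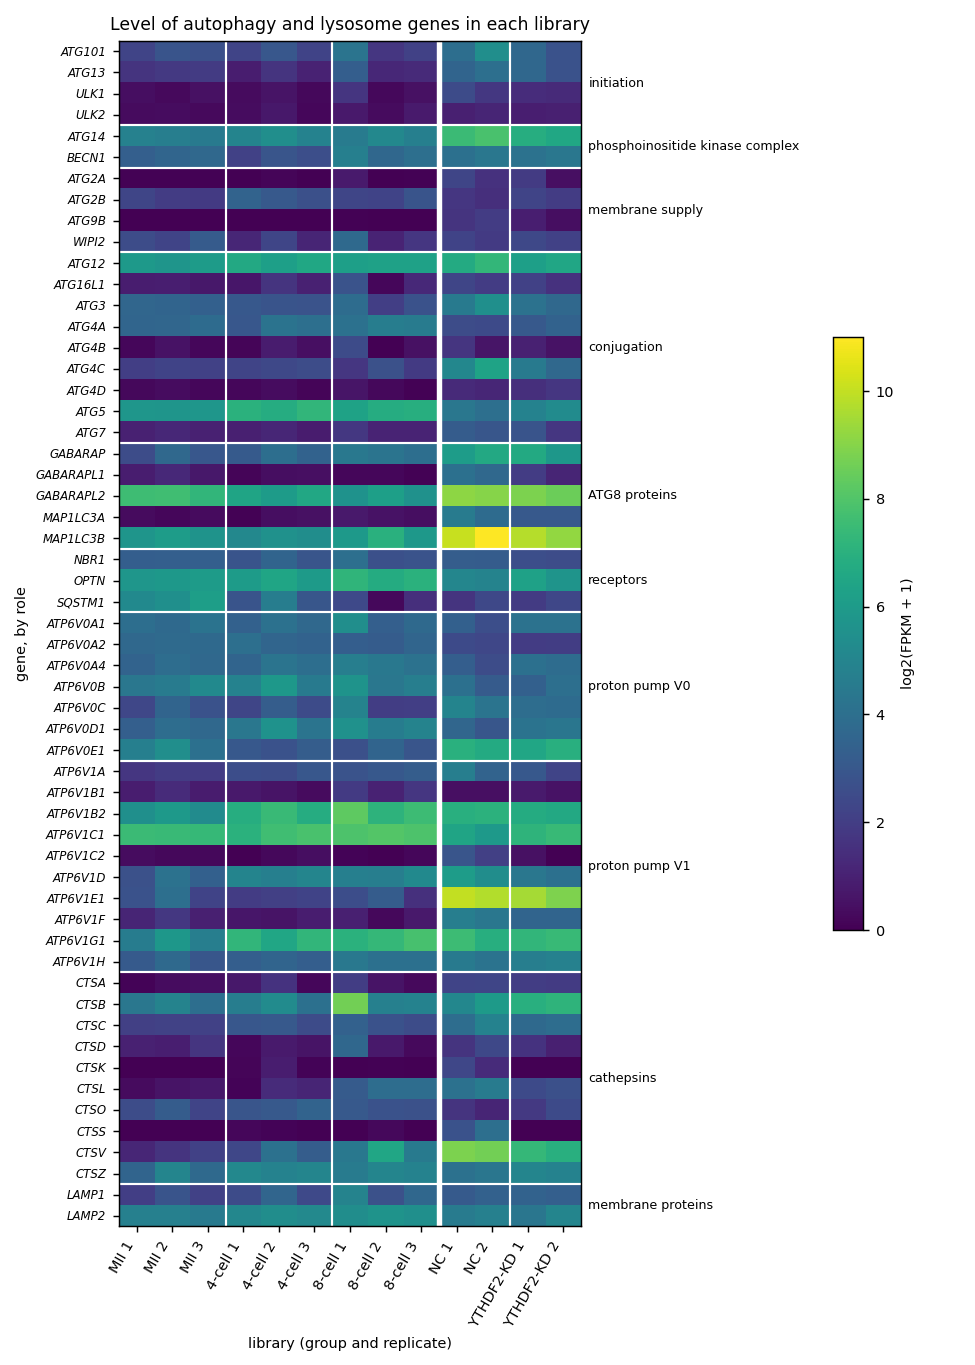
Level of the fitted members in each of the 13 libraries, as log2(FPKM + 1), with genes in rows by role and libraries in columns by group. The thick line separates the untreated from the injected libraries, which were normalized separately, and *MAP1LC3B* and *ATP6V1E1* are the brightest genes of the injected libraries.

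The first question was which members differed between MII oocytes and 4-cell stage embryos. Of 43 members 8 rose and 4 fell by limma's moderated test on log2(FPKM + 1) with a Benjamini-Hochberg adjusted p under 0.05, 27.9% of the members, where 31.2% of all genes were called. Among all genes 24.7% rose and 6.42% fell. The members that fell were *SQSTM1*, *ATP6V0E1*, *GABARAPL2* and *BECN1*, and those that rose were *ATG5*, *ATG12*, *ATG2B*, *LAMP2* and the V1 genes *ATP6V1A*, *ATP6V1B2*, *ATP6V1D* and *ATP6V1G1*. The split depended on scaling. When libraries were set to an equal sum of FPKM, or when recovered fragments were fitted, 2 members rose and 6 fell. By the rule of the study, which asks for more than a 2-fold change at an unadjusted p of 0.05, 7 members were higher and 3 lower, beside 16.7% and 6.06% of all genes (22.8% in all). Wherever this rule is named, only its cutoffs are those of the study. They were applied to the limma fit of log2(FPKM + 1), whereas the study tested with DESeq2. The 2 groups did not overlap for 22 of 43 members, against 51.9% of all genes. The median change of the members was 0.24, against 0.29 for all genes. It turned to -0.016 with median-ratio scaling, -0.12 with quantile scaling, -0.30 with an equal sum and -0.29 with recovered fragments, against 0.056, 0.039, -0.14 and -0.19 for all genes, and to -0.0017 without 4-cell replicate 2, against 0.20.

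*SQSTM1*, or p62, carries ubiquitinated cargo to the autophagosome and is itself degraded with it. Its level was 36.5, 43.7 and 70.8 FPKM in the 3 MII libraries, 6.21, 24.2 and 6.61 FPKM at the 4-cell stage and 4.31, 0.167 and 1.80 FPKM at the 8-cell stage. The stages did not overlap, and each library of a later stage was below all libraries of the stage before. The log2 change from MII was -2.15 (SE 0.61, adjusted p = 0.0259) in 4-cell and -4.25 (SE 0.61, adjusted p = 0.000793) in 8-cell stage embryos. Between the 4- and 8-cell stages the difference was -2.10 (SE 0.61, adjusted p = 0.0666), which did not pass the test. In fragments, the 8-cell libraries held 255, 10 and 119, where the MII libraries held 2719, 3358 and 6550.

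*OPTN*, a receptor that also binds ubiquitin, went the other way. It was at 53.6, 58.0 and 64.1 FPKM in MII oocytes, 65.5, 87.0 and 63.1 FPKM at the 4-cell stage and 147, 107 and 131 FPKM at the 8-cell stage. The 8-cell libraries were above all libraries of the other stages, and the log2 change was 1.11 (SE 0.19, adjusted p = 0.00165) from MII and 0.83 (SE 0.19, adjusted p = 0.0275) from the 4-cell stage. The ratio of *SQSTM1* to *OPTN* within a library was 0.681, 0.755 and 1.10 in MII libraries, 0.0949, 0.278 and 0.105 in 4-cell libraries and 0.0294, 0.00156 and 0.0138 in 8-cell libraries. The stages did not overlap in this ratio, with an exact two-sided permutation p of 0.1 for each pair of stages, the smallest that 3 against 3 libraries allow, and an adjusted p of 0.171 over the 24 ratios and shares compared. *NBR1*, the third receptor, was at 5.39 to 15.2 FPKM over the untreated libraries and passed no test.

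The ATG8 proteins are the small ubiquitin-like proteins that coat the autophagosome. *GABARAPL2* had the highest mean of the members in MII oocytes, at 189.8, 195 and 149 FPKM, though *ATP6V1C1* was above it in MII replicate 3, at 163 FPKM. *GABARAPL2* was at 84.1, 64.2 and 94.8 FPKM at the 4-cell stage and 48.2, 73.9 and 46.5 FPKM at the 8-cell stage. Both embryo stages lay below every MII library. The log2 change was -1.13 (SE 0.23, adjusted p = 0.00545) in 4-cell and -1.67 (SE 0.23, adjusted p = 0.000616) in 8-cell stage embryos. *MAP1LC3B*, the LC3 gene used most as a mark of autophagosomes, was at 52.4, 66.0 and 48.7 FPKM in MII oocytes, 34.1, 45.9 and 40.8 FPKM at the 4-cell stage and 58.4, 127 and 56.5 FPKM at the 8-cell stage. Its 8-cell libraries overlapped those of MII, and its change from MII was 0.43 (SE 0.30, adjusted p = 0.29) at the 8-cell stage, which did not pass the test.

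The ratio of *GABARAPL2* to *MAP1LC3B* within a library does not depend on the scaling between libraries. It was 3.62, 2.96 and 3.06 in MII libraries, 2.46, 1.40 and 2.32 in 4-cell libraries and 0.826, 0.581 and 0.824 in 8-cell libraries. The stages did not overlap, again with an exact permutation p of 0.1 for each pair and an adjusted p of 0.171. *GABARAPL2* made up 71.0% to 76.5% of the summed ATG8 FPKM in MII oocytes and 33.7% to 39.3% at the 8-cell stage. *GABARAP*, another member of this family, was at 4.89, 12.3 and 7.02 FPKM in MII oocytes, 7.66, 14.6 and 10.1 FPKM in 4-cell embryos and 20.5, 17.9 and 14.9 FPKM at the 8-cell stage, a change of 1.12 (SE 0.33, adjusted p = 0.0244). The call was lost under each of the 4 other scalings (0.68 to 0.77, adjusted p of 0.059 to 0.21). *GABARAPL1* was at 0.867, 1.39 and 0.627 FPKM in MII oocytes, 0.126, 0.338 and 0.359 FPKM in 4-cell and 0.156, 0.154 and 0.0598 FPKM in 8-cell embryos. *MAP1LC3A* was at 0.244, 0.132 and 0.262 FPKM in MII oocytes, 0.0323, 0.346 and 0.421 FPKM in 4-cell and 0.684, 0.439 and 0.337 FPKM in 8-cell embryos. *MAP1LC3C* was listed at 0, 0 and 0.0464 FPKM in MII oocytes, 0.0343, 0.147 and 0 FPKM in 4-cell embryos and 0 in all 8-cell libraries. These 3 genes, also in the LC3 and GABARAP family, were too low for the stage fit.

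**Figure D2:**
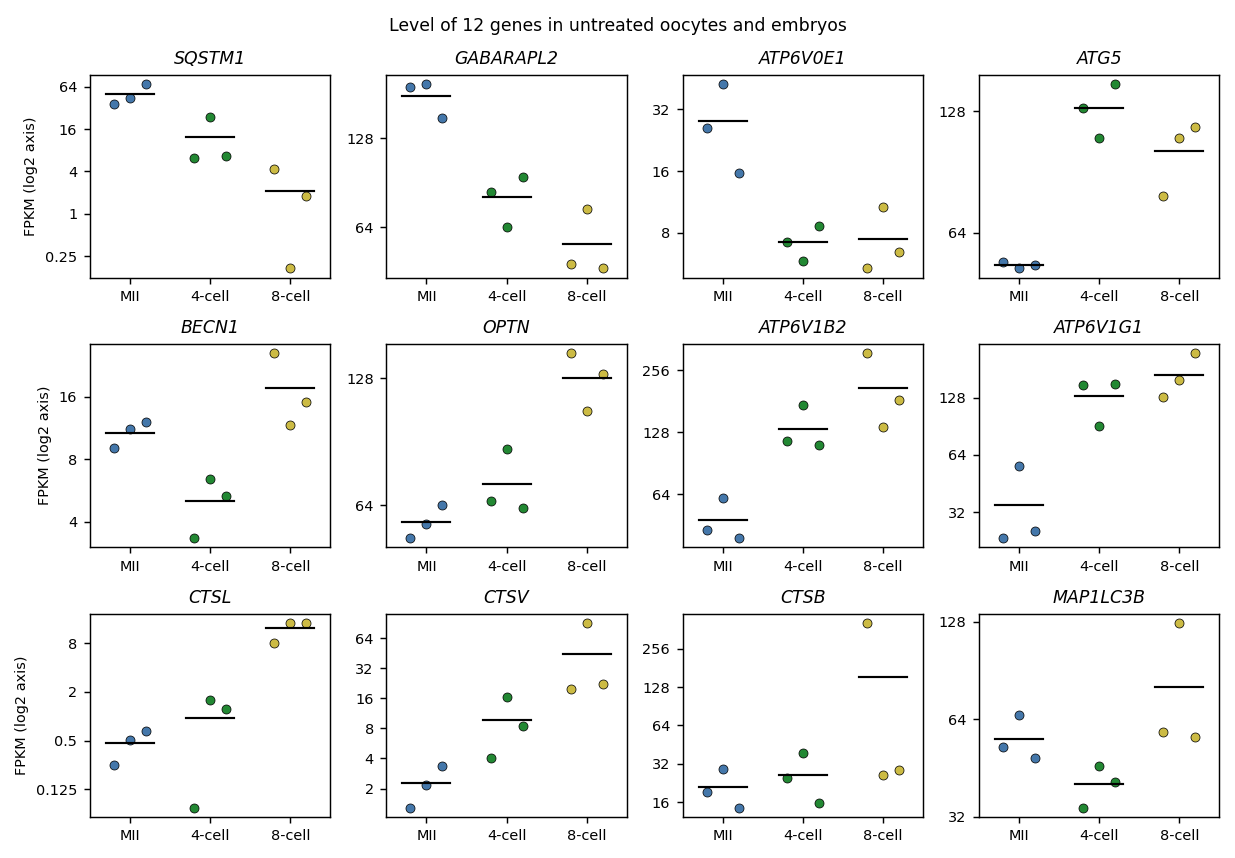
FPKM (log2 axis) of 12 members in each untreated library, with 1 point per library and a line at the mean of each stage (n = 3). *SQSTM1* and *GABARAPL2* are lower at the later stages, *OPTN*, *CTSL* and *CTSV* are highest at the 8-cell stage, and the mean of *CTSB* at the 8-cell stage rests on 1 library.

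Among the genes that start autophagy, *BECN1*, the scaffold of the lipid kinase complex, was at 9.07, 11.1 and 12.1 FPKM in MII oocytes, 3.33, 6.45 and 5.30 FPKM at the 4-cell stage and 26.0, 11.7 and 15.2 FPKM at the 8-cell stage. The 4-cell libraries lay below all others, while the 8-cell libraries overlapped those of MII. The log2 change was -0.99 (SE 0.31, adjusted p = 0.0384) from MII to the 4-cell stage and 1.59 (SE 0.31, adjusted p = 0.0189) from the 4-cell to the 8-cell stage. The fall from MII kept its call in 10 of 18 alternatives, with adjusted p from 0.0069 to 0.13. *ATG14*, its partner in autophagy, was at 22.4 to 42.7 FPKM over the untreated libraries and passed no test. *ULK1*, the kinase at the top of the pathway, was at 0.337, 0.231 and 0.407 FPKM in MII oocytes, 0.256, 0.481 and 0.166 FPKM in 4-cell and 2.23, 0.181 and 0.413 FPKM in 8-cell embryos, highest in 8-cell replicate 1. Its partners *ATG13* and *ATG101* were also highest in that library, at 8.79 and 17.8 FPKM, against 1.37 to 1.48 and 2.37 to 3.39 FPKM in the other 8-cell libraries, and neither passed a test.

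In the conjugation machinery, *ATG5*, which with ATG12 forms the enzyme that attaches ATG8 proteins to lipid, was at 54.4, 52.3 and 53.2 FPKM in MII oocytes, 131, 110.1 and 149.6 FPKM at the 4-cell stage and 78.8, 109.8 and 117 FPKM at the 8-cell stage. All embryo libraries were above all MII libraries. Its log2 change was 1.26 (SE 0.19, adjusted p = 0.00135) in 4-cell and 0.90 (SE 0.19, adjusted p = 0.00518) in 8-cell stage embryos. The second call was lost under each of the 4 other scalings, with changes of 0.38 to 0.53 and adjusted p of 0.071 to 0.22. *ATG12* was at 60.2, 53.1 and 65.5 FPKM in MII oocytes and 98.5, 72.3 and 93.4 FPKM at the 4-cell stage, a change of 0.55 (SE 0.17, adjusted p = 0.0328) that turned to -0.0032 when recovered fragments were fitted. The other 5 fitted genes of this group, *ATG3*, *ATG4A*, *ATG4C*, *ATG7* and *ATG16L1*, passed no test at the stages.

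*ATG2B*, a protein that moves lipid into the growing membrane, was at 3.85, 2.90 and 2.70 FPKM in MII oocytes and 10.4, 7.40 and 5.38 FPKM at the 4-cell stage, with a change of 1.04 (SE 0.29, adjusted p = 0.0216). The groups did not overlap. The call was kept in 10 of 18 alternatives and lost under each of the 4 other scalings (adjusted p up to 0.17). At the 8-cell stage it was at 3.90, 3.65 and 6.30 FPKM and did not pass the test. *WIPI2*, which recruits the conjugation machinery to the membrane, was at 1.13 to 12.5 FPKM and passed no test.

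Of 8 fitted V1 genes of the proton pump 4 rose in 4-cell and 5 in 8-cell stage embryos, and none fell by the adjusted p. Of 7 fitted V0 genes none rose and 1 fell in 4-cell embryos, and 2 rose and 1 fell in 8-cell embryos. Among all genes 24.7% rose and 6.42% fell in 4-cell embryos, and 27.3% rose and 10.0% fell in 8-cell embryos. Of the 4 V1 calls in 4-cell embryos, that of *ATP6V1G1* alone was kept with an equal sum of FPKM or recovered fragments. The difference between V1 and V0 was not tested. *ATP6V1G1*, a stalk subunit, was at 23.3, 55.8 and 25.4 FPKM in MII oocytes, 149.9, 90.9 and 151 FPKM at the 4-cell stage and 129, 158 and 219 FPKM at the 8-cell stage. Every embryo library was above every MII library, and the change was 1.95 (SE 0.35, adjusted p = 0.00335) in 4-cell and 2.32 (SE 0.35, adjusted p = 0.00104) in 8-cell stage embryos. *ATP6V1B2*, a subunit of the ATP-splitting ring, was at 43.0, 61.4 and 39.2 FPKM in MII oocytes, 116, 173 and 111 FPKM at the 4-cell stage and 309.6, 136 and 184 FPKM at the 8-cell stage. Its groups did not overlap between MII and either embryo stage, with changes of 1.46 (SE 0.32, adjusted p = 0.00745) and 2.05 (SE 0.32, adjusted p = 0.00107).

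*ATP6V1D*, part of the central rotor, was at 5.68, 16.7 and 9.46 FPKM in MII oocytes, 30.6, 25.7 and 31.4 FPKM at the 4-cell stage and 25.8, 24.9 and 36.1 FPKM at the 8-cell stage. The changes were 1.49 (SE 0.33, adjusted p = 0.0078) and 1.46 (SE 0.33, adjusted p = 0.00696), with no overlap between oocytes and embryos. *ATP6V1A*, the catalytic subunit, was lower in level, at 2.34, 2.83 and 2.87 FPKM in MII oocytes, 4.98, 4.90 and 6.95 FPKM in 4-cell and 6.14, 7.09 and 8.55 FPKM in 8-cell embryos. Its changes from MII were 0.83 (SE 0.22, adjusted p = 0.019) and 1.16 (SE 0.22, adjusted p = 0.0032). *ATP6V1H* rose at the 8-cell stage by 0.89 (SE 0.25, adjusted p = 0.0189), a call lost under each of the 4 other scalings (0.44 to 0.54, adjusted p of 0.086 to 0.25). *ATP6V1C1* was the most abundant V1 gene in MII oocytes, at 182, 174 and 163 FPKM, and it did not pass the test at either stage.

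*ATP6V0E1*, a small membrane subunit, was at 26.0, 42.7 and 15.6 FPKM in MII oocytes, 7.19, 5.81 and 8.61 FPKM at the 4-cell stage and 5.36, 10.7 and 6.43 FPKM at the 8-cell stage. All embryo libraries were below all MII libraries. The change was -1.73 (SE 0.36, adjusted p = 0.00659) in 4-cell and -1.72 (SE 0.36, adjusted p = 0.00546) in 8-cell stage embryos. *ATP6V0D1*, which links the membrane ring to the rotor, was at 9.01, 14.3 and 12.2 FPKM in MII oocytes, 19.4, 47.9 and 17.5 FPKM at the 4-cell stage and 45.7, 23.3 and 28.9 FPKM at the 8-cell stage. Its change from MII was 1.07 (SE 0.39, adjusted p = 0.0647) at the 4-cell stage, which did not pass the test, and 1.36 (SE 0.39, adjusted p = 0.0222) at the 8-cell stage. The 8-cell call was lost with an equal sum of FPKM and with recovered fragments, and over all alternatives its change was 0.88 to 1.56. The summed V1 level was 253 to 344 FPKM in MII oocytes, 446 to 542 FPKM at the 4-cell stage and 614 to 746 FPKM at the 8-cell stage. The summed V0 level was 96.5 to 131 FPKM in MII oocytes and 93.9 to 209.5 FPKM at the 8-cell stage, and these ranges overlapped. The V1 and V0 sums are given at the authors' scaling only, so their differences from MII depend on the divisor of the MII table.

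At the 8-cell stage compared to MII, 14 members rose and 3 fell of 43, which is 39.5% of the members beside 37.4% of all genes. Among all genes 27.3% rose and 10.0% fell. By the rule of the study 10 were higher and 3 lower, beside 19.8% and 8.14% of all genes (28.0% in all). The groups did not overlap for 21 of 43 members, against 50.1% of all genes. Those of the called members not described above were *CTSL*, *CTSV*, *CTSC*, *LAMP2* and *ATP6V0A4*, all higher. With an equal sum of FPKM 7 members rose and 4 fell, and with recovered fragments 7 rose and 5 fell. The median change of the members was 0.52, against 0.37 for all genes. It was 0.15, 0.13 and 0.11 with median-ratio scaling, quantile scaling and an equal sum, against 0.051, 0.031 and 0.020 for all genes, and -0.0023 with recovered fragments, against -0.10. Both stage comparisons share the MII libraries, so their values are given side by side and their overlap is not used.

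Among the cathepsins, *CTSL*, a cysteine protease, was at 0.252, 0.509 and 0.658 FPKM in MII oocytes, 0.0749, 1.58 and 1.22 FPKM at the 4-cell stage and 7.95, 14.3 and 14.3 FPKM at the 8-cell stage. All 8-cell libraries were above all earlier ones, and the change was 3.13 (SE 0.37, adjusted p = 0.000289) from MII and 2.80 (SE 0.37, adjusted p = 0.00496) from the 4-cell stage. With means under 1 FPKM in MII oocytes and 4-cell embryos, it entered the fit only through its 8-cell level, so its direction was fixed by the filter. With no filter the adjusted p were 0.0013 and 0.014. *CTSV*, its close relative, was at 1.29, 2.15 and 3.37 FPKM in MII oocytes, 4.06, 16.4 and 8.43 FPKM at the 4-cell stage and 20.0, 91.0 and 22.1 FPKM at the 8-cell stage. The stages did not overlap, the change from MII to the 8-cell stage was 3.49 (SE 0.61, adjusted p = 0.00203), and that from the 4-cell stage was 1.92 (SE 0.61, adjusted p = 0.088), which did not pass the test. The sequences of *CTSL* and *CTSV* are alike, so how the unique alignments divide reads between them is uncertain.

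*CTSB*, another cysteine protease, was at 19.4, 29.3 and 14.6 FPKM in MII oocytes, 24.6, 38.8 and 15.8 FPKM at the 4-cell stage and 408, 26.4 and 28.5 FPKM at the 8-cell stage. Its high 8-cell level was that of replicate 1, and the change of 1.70 (SE 0.90, adjusted p = 0.166) from MII did not pass the test. *CTSD*, an aspartic protease, was likewise at 11.9 FPKM in 8-cell replicate 1 and at 0.141 to 2.29 FPKM in the other untreated libraries. *CTSC* rose by 0.78 (SE 0.28, adjusted p = 0.0496) at the 8-cell stage, a call kept in 2 of 18 alternatives (adjusted p from 0.04 to 0.38). *CTSO* and *CTSZ* passed no test. *CTSA*, *CTSF*, *CTSH*, *CTSK* and *CTSS* were too low for the stage fit, and *CTSW* was not listed for MII oocytes, which the fit requires.

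Of the lysosomal membrane proteins, *LAMP2*, which is needed for fusion of the autophagosome with the lysosome, was at 26.5, 26.8 and 21.8 FPKM in MII oocytes, 33.1, 40.5 and 34.7 FPKM at the 4-cell stage and 41.0, 49.9 and 43.3 FPKM at the 8-cell stage. The stages did not overlap. Its change from MII was 0.51 (SE 0.17, adjusted p = 0.0456) at the 4-cell stage, which turned to -0.01 with an equal sum of FPKM and to -0.03 with recovered fragments, and 0.81 (SE 0.17, adjusted p = 0.00492) at the 8-cell stage. The 8-cell call was lost under each of the 4 other scalings, with changes of 0.30 to 0.44 and adjusted p of 0.11 to 0.18. *LAMP1*, its relative, was at 3.17, 6.30 and 3.32 FPKM in MII oocytes, 4.65, 11.1 and 4.39 FPKM in 4-cell embryos and 29.3, 5.54 and 11.7 FPKM at the 8-cell stage, where the groups overlapped and the test was not passed.

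**Figure D3:**
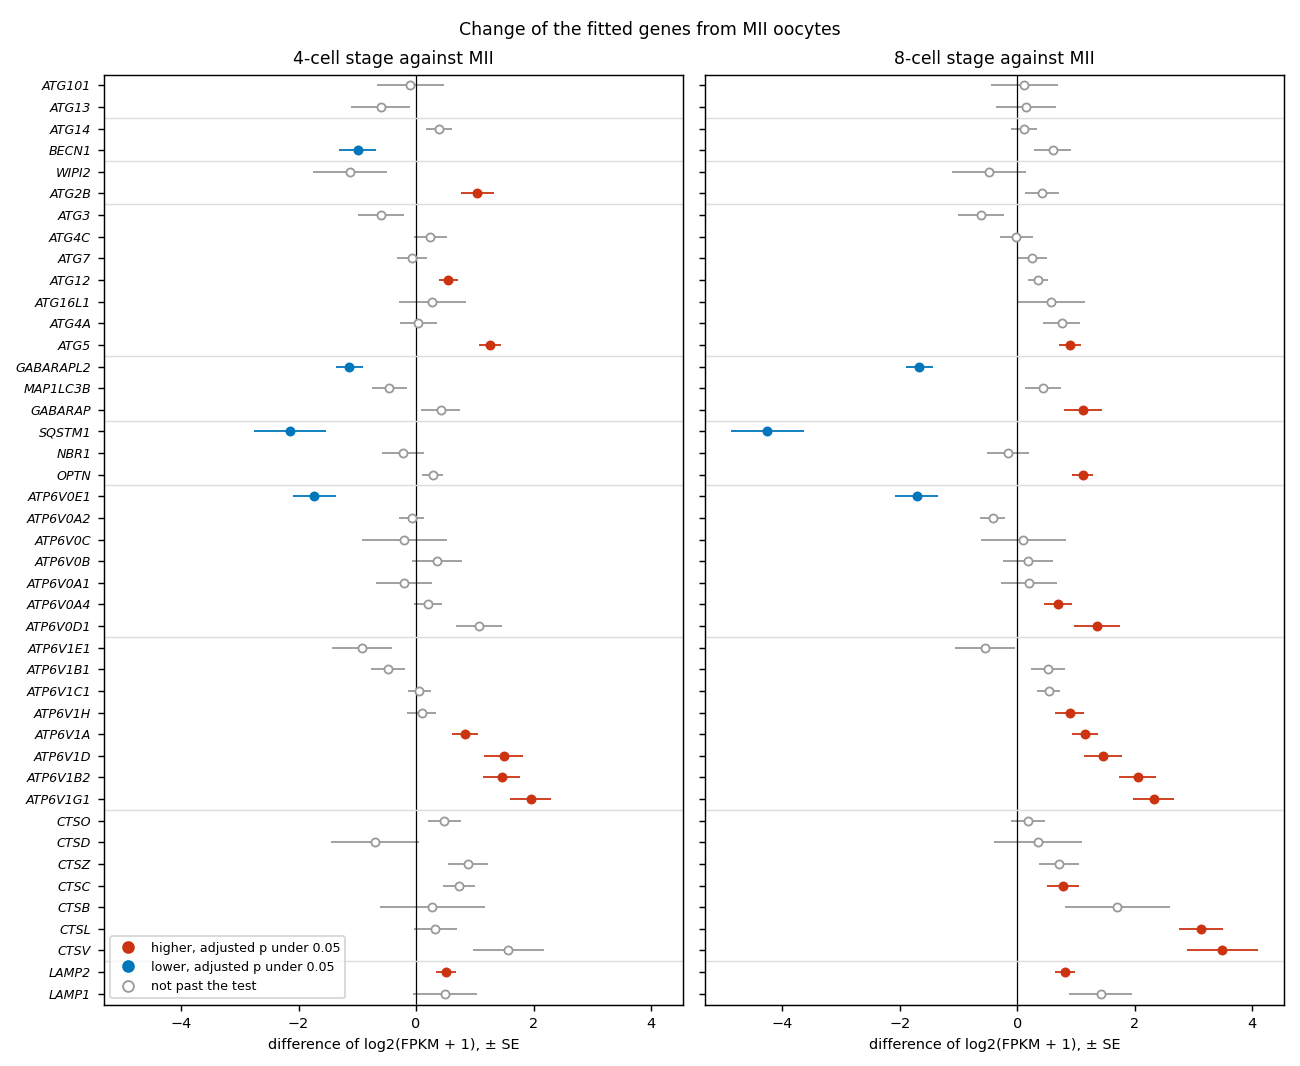
Difference of log2(FPKM + 1) from MII oocytes for the 43 fitted members at the 4-cell stage (left) and the 8-cell stage (right), ordered by role, with points at the limma estimate and bars of 1 SE. Filled points passed the adjusted p of 0.05, 8 higher and 4 lower in 4-cell embryos, 14 higher and 3 lower in 8-cell embryos.

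Between the 4- and 8-cell stages 3 members rose (*CTSL*, *BECN1* and *OPTN*), which is 6.98% of the members beside 8.29% of all genes. Among all genes 3.06% rose and 5.24% fell. The rule of the study called 3 members higher and 1 lower, beside 4.55% and 4.28% of all genes (8.83% in all). By limma's adjusted p 0 members fell. At an unadjusted p under 0.05 there were 2, *SQSTM1* and *GABARAPL2*, and the fit of recovered fragments also gave 0. The groups did not overlap for 11 of 43 members, against 28.2% of all genes. Without 8-cell replicate 1, 2 members rose and 1 fell, since *SQSTM1* then passed (-2.62, adjusted p = 0.032) and *OPTN* did not (0.73, adjusted p = 0.059).

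For the comparison with MII, leaving out 8-cell replicate 1 gave 11 members that rose and 5 that fell. The calls of *ATP6V0A4*, *CTSC*, *GABARAP* and *ATP6V0D1* were lost without it, with adjusted p of 0.11, 0.12, 0.05 and 0.052. They were kept in 5, 2, 10 and 12 of 18 alternatives, and that of *ATP6V1H* in 12. Leaving out MII replicate 1 or 3 ended the same calls and that of *ATP6V1H*, leaving out 8-cell replicate 2 those of *ATP6V0A4*, *CTSC* and *GABARAP*, and 8-cell replicate 3 those of *ATP6V0A4* and *ATP6V0D1*. The call of *CTSC* was also lost without MII replicate 2 or 4-cell replicate 1, 2 or 3, and that of *ATP6V0A4* without 4-cell replicate 3. The calls that held under every alternative scaling, filter, pseudocount, block and left-out library in which the gene could be fitted were those of *ATG5*, *ATP6V0E1*, *ATP6V1G1* and *GABARAPL2* at the 4-cell stage, *ATP6V0E1*, *ATP6V1B2*, *ATP6V1D*, *ATP6V1G1*, *CTSL*, *CTSV*, *GABARAPL2*, *OPTN* and *SQSTM1* at the 8-cell stage, and *CTSL* between the embryo stages, with the limit given above for *CTSL*. The fall of *SQSTM1* at the 4-cell stage lost its call in 8 of 18 alternatives, with adjusted p from 0.0058 to 0.096. At that stage *ATG12* kept its call in 8 of 18, *LAMP2* in 5, *ATP6V1A* in 12, and *ATP6V1B2* and *ATP6V1D* in 16 each, both lost with an equal sum or recovered fragments. Leaving out 1 MII library ended the calls of *BECN1*, *LAMP2* and *SQSTM1* whichever it was, and of *ATG12* without replicate 1 or 2, *ATG2B* without replicate 2 or 3 and *ATP6V1A* without replicate 1. Without 4-cell replicate 1 or 3 those of *ATG12*, *BECN1*, *LAMP2* and *SQSTM1* were lost, *ATG2B* without 4-cell replicate 1 or 2, *LAMP2* also without 4-cell replicate 2 or 8-cell replicate 2 or 3, *ATP6V1A* without 4-cell replicate 3, and *ATG12* and *BECN1* without 8-cell replicate 3. Between the embryo stages the rise of *BECN1* lost its call in 5 of 18 alternatives, among them leaving out 4-cell replicate 1 or 3 or 8-cell replicate 3, with adjusted p from 0.012 to 0.071. That of *OPTN* lost its call in 8 of 18, with adjusted p from 0.021 to 0.1, among them median-ratio scaling, the fit of only those groups, the replicate block and leaving out MII replicate 1, 4-cell replicate 1 or 3 or 8-cell replicate 1 or 3. In such bulk samples fewer cells of a type and less RNA per cell cannot be told apart.

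Other genes of the pathway that are not members were taken from lists, whose counts are to be read beside all genes, of which 24.7% rose and 6.42% fell in 4-cell embryos and 27.3% rose and 10.0% fell in 8-cell embryos. Of 31 other autophagy genes tested, 9 rose and none fell in 4-cell embryos, and 6 rose and 2 fell in 8-cell embryos. *TMEM41B*, a lipid scramblase of the endoplasmic reticulum, rose by 1.84 (SE 0.17, adjusted p = 0.00017) at the 4-cell stage, and *BNIP3L*, a receptor for mitochondria, by 2.37 (SE 0.33, adjusted p = 0.00098). Of 29 other lysosome genes 7 rose and 3 fell in 4-cell embryos, and 12 rose and 4 fell in 8-cell embryos. Some of these genes reached the filter only through the higher group and so had to differ, among them *IGF2R* through MII and *TPP1*, *GM2A* and *GLA* through the 8-cell stage. *ATP6AP2*, an accessory protein of the proton pump, fell with a log2 change of -1.42 (SE 0.31, adjusted p = 0.0059) at the 8-cell stage. Of 24 upstream regulators 7 rose and none fell in 4-cell embryos, and 10 rose and 2 fell in 8-cell embryos. Among subunits of the Ragulator complex, which holds mTORC1 at the lysosome, the 8-cell change was 2.53 (SE 0.47, adjusted p = 0.0029) for *LAMTOR3*, -1.49 (SE 0.48, adjusted p = 0.034) for *LAMTOR2* and -1.10 (SE 0.32, adjusted p = 0.024) for *LAMTOR5*. *LAMTOR2* was low, at 2.27, 9.81 and 2.14 FPKM in MII oocytes and 1.62, 0.320 and 0.435 FPKM at the 8-cell stage, with MII replicate 2 well above the rest. How the genes of these lists fared under the alternatives is not given.

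The next question was which members differed after *YTHDF2* knockdown at the 8-cell stage. Of 55 members 1 rose and 7 fell, 14.5% of the members, where 7.98% of all genes were called. By direction, 12.7% of the members and 5.92% of all genes fell, and 1.82% of the members and 2.06% of all genes rose. The members that fell were *CTSS*, *CTSK*, *CTSL*, *CTSV*, *GABARAPL1*, *ATP6V1C2* and *ATP6V1D*, and the one that rose was *CTSB*. Of the 7 that fell, *CTSS*, *CTSK* and *ATP6V1C2* averaged under 1 FPKM in YTHDF2-KD and reached the filter only through the NC libraries, so they had to be lower, and nothing about the members is read from these shares. The rule of the study called 5 members higher and 14 lower, beside 9.48% and 15.3% of all genes (24.8% in all). The median change of the members was -0.40, against 0.0054 for all genes, and -0.25 with quantile scaling and -0.26 without YTHDF2-KD replicate 2, against 0.077 and 0.038. The libraries of the 2 groups did not overlap for 40 of 55 members, against 61.0% of all genes.

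Among the cathepsins, *CTSV* was at 449 and 398 FPKM in the NC libraries and 157 and 120.3 FPKM in the YTHDF2-KD libraries, and its log2 change was -1.61 (SE 0.38, adjusted p = 0.0218). *CTSL* was at 16.3 and 23.0 FPKM in NC and 4.57 and 5.45 FPKM in YTHDF2-KD, with a change of -1.76 (SE 0.43, adjusted p = 0.0253). Both genes were lower in each knockdown library than in each control library. *CTSB* was at 33.2 and 62.7 FPKM in NC and 121 and 139 FPKM in YTHDF2-KD, higher in both knockdown libraries, with a change of 1.49 (SE 0.42, adjusted p = 0.0445). *CTSV* and *CTSL* together made up 85.0% and 75.4% of the summed cathepsin FPKM in NC and 48.3% and 39.8% in YTHDF2-KD, while the share of *CTSB* was 6.07% and 11.2% in NC and 36.1% and 44.1% in YTHDF2-KD. With 2 against 2 libraries the smallest exact permutation p is 0.333, so no share could pass. That of *CTSV* and *CTSL* had this p of 0.333, with an adjusted p of 0.444 over the 24 comparisons, and that of *CTSB* was not tested.

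*CTSS*, a protease best known from antigen-presenting cells, was at 5.88 and 15.0 FPKM in NC and listed at 0 in both YTHDF2-KD libraries. *CTSK*, known from osteoclasts, was at 4.06 and 1.58 FPKM in NC and also listed at 0 in YTHDF2-KD. No fold is given against values listed at 0. Both entered the fit only through NC, and with no filter neither passed (adjusted p = 0.17 for each). In the untreated libraries *CTSS* was under 0.17 FPKM and *CTSK* under 0.83 FPKM. Of 3 blood and immune cell genes, *CD68* was at 3.19 and 3.92 FPKM in NC and 0.71 and 0.3 FPKM in YTHDF2-KD, *CD14* at 0.41 and 1.16 FPKM and 0.12 and 0 FPKM, and *PTPRC*, the defining one, at 0.58 and 0.4 FPKM and 0.54 and 0.65 FPKM. Their summed level was 4.18 to 5.48 FPKM in NC and 0.95 to 1.37 FPKM in YTHDF2-KD, and the part of such cells in the values of *CTSS* and *CTSK* was not tested.

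Among the ATG8 genes, *GABARAPL1* was at 15.8 and 12.1 FPKM in NC and 2.85 and 1.17 FPKM in YTHDF2-KD, a change of -2.36 (SE 0.45, adjusted p = 0.00939). *MAP1LC3B* was the most abundant member in both groups, at 1072 and 1998 FPKM in NC and 876 and 597 FPKM in YTHDF2-KD. Both knockdown libraries were below both controls, but the change of -1.02 (SE 0.39, adjusted p = 0.111) did not pass the test. *MAP1LC3A* was at 22.9 and 13.4 FPKM and 7.47 and 7.53 FPKM, *GABARAPL2* at 567 and 514 FPKM and 455 and 372 FPKM, and *GABARAP* at 66.2 and 97.4 FPKM and 103 and 56.0 FPKM, in NC and YTHDF2-KD. None of these 3 passed the test. *MAP1LC3C* was listed at 0 and 0 FPKM in NC and at 0.56 and 0 FPKM in YTHDF2-KD and did not enter the fit.

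In the proton pump, *ATP6V1D* was at 66.3 and 41.2 FPKM in NC and 19.6 and 15.5 FPKM in YTHDF2-KD, with a change of -1.53 (SE 0.42, adjusted p = 0.0408). *ATP6V1C2*, a variant of the C subunit, was at 6.51 and 3.24 FPKM in NC and 0.4 and 0 FPKM in YTHDF2-KD. It too entered the fit only through NC, and with no filter its adjusted p was 0.17. The common form of that subunit, *ATP6V1C1*, was at 84.9 and 59.3 FPKM in NC and 139.5 and 172 FPKM in YTHDF2-KD, a difference of 1.11 (SE 0.40, adjusted p = 0.0874) that did not pass the test. No V0 gene passed it. *ATP6V0A1*, which had the largest positive estimate of the 7, was at 9.21 and 5.2 FPKM in NC and 16.9 and 16.6 FPKM in YTHDF2-KD, with 1.16 (SE 0.43, adjusted p = 0.104).

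No gene of the initiation complex, the lipid kinase complex, membrane supply, the conjugation machinery, the receptors or the membrane proteins passed the test in the knockdown. *SQSTM1* was at 2.17 and 4.18 FPKM in NC and 2.73 and 4.06 FPKM in YTHDF2-KD, with a difference of 0.10 (SE 0.44, adjusted p = 0.898). *BECN1* was at 15.6 and 19.7 FPKM and 16.6 and 19.6 FPKM, *LAMP2* at 22.8 and 26.7 FPKM and 18.8 and 31.5 FPKM, *LAMP1* at 7.77 and 9.72 FPKM and 10.0 and 9.03 FPKM, and *ULK1* at 4.79 and 2.45 FPKM and 1.63 and 1.5 FPKM. The ranges of *SQSTM1*, *BECN1*, *LAMP2* and *LAMP1* overlapped between the groups, while both *ULK1* values were lower in the knockdown. *ATG4C*, a protease that trims ATG8 proteins, had the largest difference that missed the adjusted p, with 33.2 and 81.8 FPKM in NC, 22.3 and 12.3 FPKM in YTHDF2-KD and a log2 difference of -1.60 (SE 0.49, adjusted p = 0.0571).

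None of the 8 knockdown calls held under every alternative. With no filter on low values none of the 8 passed, with adjusted p of 0.17 to 0.18. How many of the 20357 genes fitted in that setting passed is not given, so nothing about the members is read from this loss. The calls of *CTSS*, *GABARAPL1* and *ATP6V1C2* were lost only there. *ATP6V1D* kept its call in 4 of 12 alternatives, with adjusted p from 0.0034 to 0.18, and *CTSB* in 5 of 12, from 0.0022 to 0.21. *CTSV* kept it in 6 of 12, from 0.00024 to 0.17, *CTSL* in 8 of 12, from 0.002 to 0.17, and *CTSK* in 7 of the 10 in which it could be fitted. Leaving out NC replicate 1 ended the calls of *ATP6V1D*, *CTSB*, *CTSV* and *CTSL*, leaving out NC replicate 2 those of *ATP6V1D*, *CTSV* and *CTSL*, and leaving out YTHDF2-KD replicate 2 those of *ATP6V1D*, *CTSB*, *CTSV* and *CTSK*. Oocyte markers moved with the groups as well, with a summed level of 479 to 752 FPKM in NC and 971 to 1894 FPKM in YTHDF2-KD over 8 genes. The summed level of the 9 cumulus and granulosa cell genes was 35.2 to 39.2 FPKM in NC and 67.1 to 69.0 FPKM in YTHDF2-KD, where 4 and 3 of them reached 1 FPKM in a library and 1 in each group was listed at 0. The part of either in these values was not tested.

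**Figure D4:**
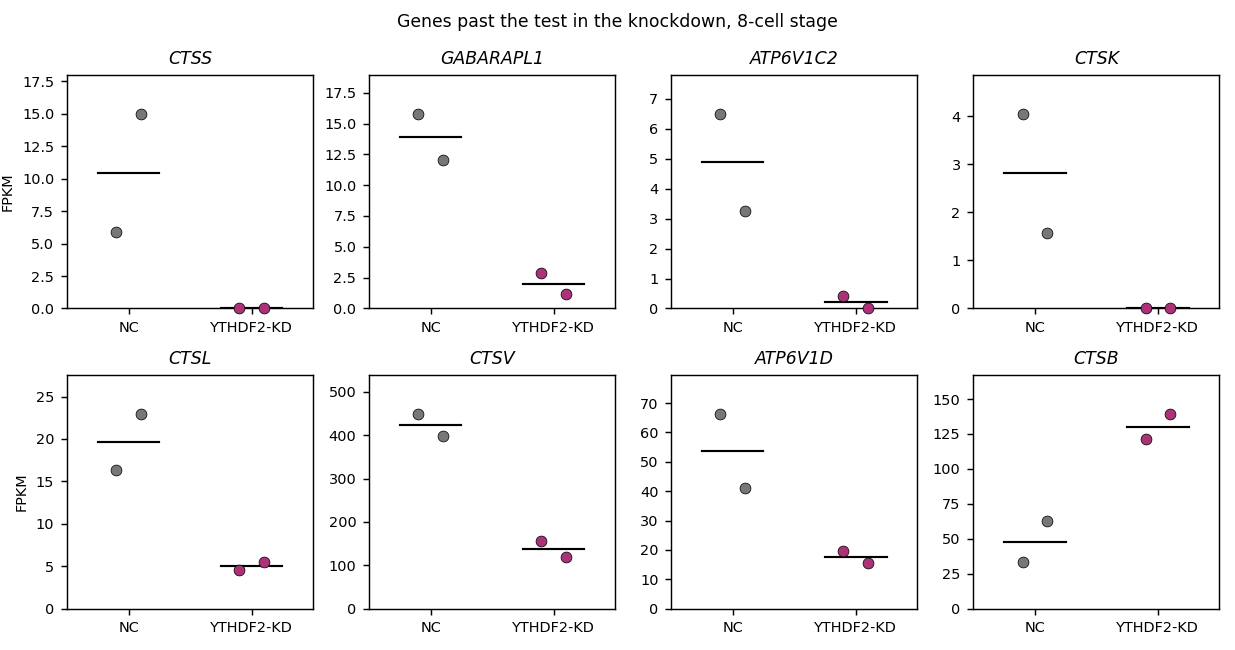
FPKM of the 8 members that passed the adjusted p in the knockdown, with 1 point per library, 2 libraries per group and a line at the mean. In all 8 panels the groups are separate, and *CTSB* is the one that is higher in YTHDF2-KD.

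The other genes of the pathway are again to be read beside all genes, of which 2.06% rose and 5.92% fell in the knockdown. Of 33 other autophagy genes tested none rose and 2 fell, *NRBF2* (-2.09, adjusted p = 0.018), a subunit of the lipid kinase complex, and *VMP1* (-2.07, adjusted p = 0.022), a membrane protein needed to form the autophagosome. *NRBF2* was at 45.1 and 89.2 FPKM in NC and 19.3 and 10.35 FPKM in YTHDF2-KD, and *VMP1* at 17.6 and 22.8 FPKM and 6.71 and 2.24 FPKM. Of 35 other lysosome genes 1 fell, *ACP5*, which was listed at 0 in both YTHDF2-KD libraries and reached the filter only through NC, and none rose. Of 26 upstream regulators 2 fell, *LAMTOR2* (-2.78, adjusted p = 0.0038) and *LAMTOR4* (-1.89, adjusted p = 0.025), both of the Ragulator complex, and none rose.

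The NC embryos and the untreated 8-cell embryos carry the same stage label, and their levels for the members are set side by side without a test, since the tables were normalized separately. *ATP6V1E1*, a stalk subunit of the pump, was at 5.08, 8.25 and 1.91 FPKM in untreated 8-cell embryos and 1019.7 and 839 FPKM in NC embryos. *MAP1LC3B* was at 58.4, 127 and 56.5 FPKM in untreated embryos, below both NC values above, and *ATG5* at 78.8, 109.8 and 117 FPKM, above the NC values of 19.7 and 15.1 FPKM. Of 61 members that averaged 1 FPKM or more in either set, 21 (34.4%) had an NC mean more than 4 times the untreated mean, where 27.1% of all genes did, and 4 (6.56%) were lower than it by the same factor, where 14.9% of all genes were. The set of libraries and the injection cannot be told apart here.

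**Figure D5:**
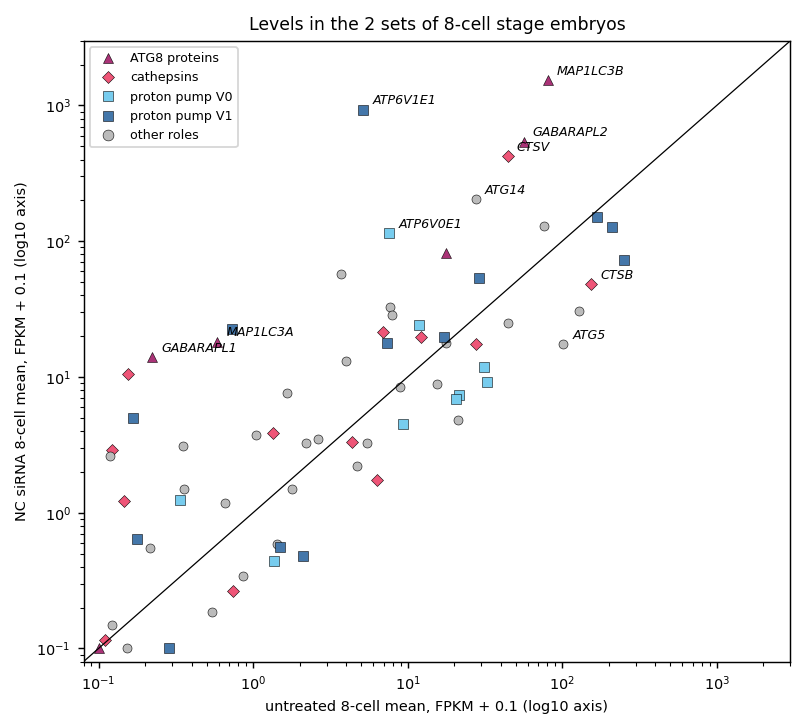
Mean FPKM of the members in untreated 8-cell embryos (horizontal, n = 3) and in NC siRNA embryos (vertical, n = 2), both plus 0.1 on log10 axes, with the line of equal levels. *ATP6V1E1*, *MAP1LC3B*, *CTSV* and *ATP6V0E1* lie above the line, and *ATG5* lies below it. *CTSB* is also below it, through the mean of the untreated libraries, which rests on 8-cell replicate 1.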

How the data were processed

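RNA-seq values of 13 goat libraries (3 MII, 3 4-cell, 3 8-cell, 2 NC, 2 YTHDF2-KD) were taken from 5 deposited tables. Per the methods, HISAT2 alignments on assembly ARS1 were limited to unique positions and counted with HTSeq, and the authors deposited FPKM, scaled within each library. Symbols were matched to a RefSeq table of a later assembly, where all 71 members were found, and no coordinates were used. 0 columns of values were left unused. Log2(FPKM + 1) was analysed by limma 3.58.1 (R 4.3.3, eBayes with trend) for genes averaging 1 FPKM or more, 9090 genes in the 9 untreated and 11004 in the 4 injected libraries, in separate fits. The stage fit drew only on the 18159 names listed for MII, 4-cell and 8-cell alike. Adjusted p are Benjamini-Hochberg values over all genes of a fit, or over the 24 comparisons for the ratios and shares. Fold changes are on this scale, which understates changes of low genes.

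Whole fragments were recovered for 100.0% of the 21024 names above 0 in the untreated libraries, within 0.02 of a whole number. The fewest fragments that fit were taken, so a name seen in few libraries may have more. They were fitted with voom, an alternative chosen after the data were seen. The scripts were tested on simulated data.

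Members and lists were chosen with earlier results of these data known. Values in each library of the groups compared are given for called members averaging 5 FPKM or more in the higher group, at most 10 per direction and comparison. Values in every library are given for *SQSTM1*, *TFEB*, *LAMP1*, *LAMP2*, *BECN1*, *ULK1* and the ATG8 genes. *CTSK*, *ATP6V1C2*, *ATP6V1C1*, *ATP6V0A1*, *ATG4C*, *CTSB* at the stages, the pathway genes that reached the filter only through 1 group, *LAMTOR5*, *LAMTOR3* in the knockdown and the genes named for 8-cell replicate 1 or for the NC and untreated levels were added after their values were seen. The ratios and shares were also chosen then. Nothing in the labels says that replicates were separate cultures, so p-values measure only the spread between these samples.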

Additional observations from a re-analysis of the deposited data

How the results depend on the processing

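Results were recomputed under other pseudocounts, filters, scalings and sample sets. Members higher at the 4-cell stage than in MII numbered 8, but 4 with median-ratio or quantile scaling, 2 with an equal sum of FPKM or recovered fragments, and 5 with a 2-fold minimum. Leaving out 1 library gave 5 to 10 higher and 2 to 5 lower. At the 8-cell stage 14 were higher than in MII, but 8 with median-ratio scaling, 7 with quantile scaling, an equal sum or recovered fragments, and 9 with a 2-fold minimum, and the 3 lower became 5 with recovered fragments. Leaving out 1 library gave 9 to 15 higher and 3 to 5 lower. Between the embryo stages the 3 higher became 1 when only those groups were fitted, and the 0 lower became 1 with median-ratio or quantile scaling and by the rule of the study. Leaving out 1 library gave 1 to 4 higher and 0 to 1 lower. In the knockdown the 1 higher became 0 with a pseudocount of 0.1, no filter, or median-ratio or quantile scaling, and the 7 lower became 3 with quantile scaling and 0 with no filter, whereas the rule of the study gave 5 and 14. Leaving out 1 library gave 0 to 1 higher and 4 to 10 lower, with the lone sample assumed to vary like the others.

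Same-numbered samples did not deviate together in every pair (correlations -0.508 to 0.201), so the numbers were not taken to pair samples. With the replicate number as a block, the 4-cell stage had 7 higher and 2 lower than MII, the 8-cell stage 12 and 3, the embryo stages 1 and 0, and the knockdown 0 and 5. The crossed pairing of the injected libraries, chosen after the data were seen, gave 2 higher and 12 lower.

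Changes of single genes that turned direction were those of *LAMP2* at the 4-cell stage (0.51, but -0.0105 with an equal sum and -0.0276 with recovered fragments), *ATG12* at the 4-cell stage (0.55, but -0.0032 with recovered fragments) and *SQSTM1* in the knockdown (0.10, but -0.25 without NC replicate 1 and -0.12 without YTHDF2-KD replicate 2, within -0.25 to 0.45 over the left-out libraries). The median change of the members turned at the 4-cell stage (0.24, but -0.30 to -0.016 under the 4 other scalings and -0.0017 without 4-cell replicate 2) and, with recovered fragments, at the 8-cell stage (0.52, but -0.0023). Of 696 values recomputed, 532 kept their direction and their side of the threshold. The cause of these changes was not tested. The depth of the injected libraries is unknown, and 2 libraries per group limit what could pass.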
